A study of Mus musculus with 60 samples.

Results

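The carcinomas described here came from mice with the backcross origin label F1BSF1 or F1BSF4. All 40 samples carrying either label were taken, whatever their histology, out of 60 carcinomas in the series. They comprised 18 carcinomas from 17 F1BSF1 mice and 22 carcinomas from 19 F1BSF4 mice, 36 of the 55 mice studied. The other origin labels, F1BSF2 and F1BSF3, covered 8 and 11 mice. Every mouse was an FVBBX animal, that is an offspring of a SPRET/Ei (Mus spretus) by FVB/N hybrid crossed again to FVB/N, and both groups therefore shared the same strain background and the same treatment. Dorsal skin was treated with the mutagen DMBA and the tumour promoter TPA. Arrays of a 3′ mouse genome design measured total RNA of whole tumours, and values are log2 RMA expression values. What distinguishes the origin labels from each other is not given in the sources used here, and neither is the age of the mice. F1BSF1 mice were kept in 10 cages and F1BSF4 mice in 12, with 0 cages in common, so that the origins could not be compared within a cage. Samples of the same mouse were averaged, which concerned 1 F1BSF1 mouse and 3 F1BSF4 mice. For 2 of these mice the sample titles leave it open whether their 2 samples are separate tumours, and the 40 samples may thus hold fewer tumours.

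In such a backcross, each mouse inherits a different set of Mus spretus segments, present in 1 copy beside an FVB/N copy, and an inherited segment can change the level of the genes that lie on it. The study cautioned that strain differences in the sequence a probe binds can in principle imitate such a change. This was not examined here. Carcinomas induced by DMBA and TPA are mostly squamous cell carcinomas (SCC), which keep the keratins and junction proteins of the epidermis, and spindle cell carcinomas, which have lost them and resemble mesenchymal cells. In bulk tumour RNA, fewer cells of a type and less RNA per cell cannot be told apart.

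Histology was the label with the smallest p between the origins, but it did not pass after adjustment. Of the F1BSF1 mice with a histology label, 6 of 12 (50%) had a spindle carcinoma, against 2 of 18 (11.1%) in F1BSF4 (Fisher's exact test, two-sided p = 0.03415, adjusted p = 0.3757 over the 11 labels compared). No histology label was given for 5 of 17 F1BSF1 mice and 1 of 19 F1BSF4 mice (exact p = 0.08065, adjusted p = 0.4435). Poorly differentiated SCC made up 0 of 6 SCC in F1BSF1 and 5 of 16 in F1BSF4 (exact p = 0.2663, adjusted p = 0.79). None of the 11 differences passed after adjustment. The share of p53 mutant mice was 5 of 17 against 4 of 19, that of females 9 of 17 against 10 of 19, that of agouti mice 8 of 17 against 12 of 19, and that of node-positive mice, where nodes were scored, 7 of 11 against 5 of 12, with adjusted exact p from 0.79 to 1. Papilloma number at 20 weeks was 4.47 ± 6.12 (SD, n = 17) in F1BSF1 and 7.16 ± 9.47 (SD, n = 19) in F1BSF4 (permutation test, 100000 resamples, p = 0.3463). At 24 weeks it was 6.53 ± 7.64 and 7.79 ± 8.84 (permutation p = 0.6703). The first papilloma was seen after 14.1 ± 4.28 weeks (SD, n = 17) and 13.5 ± 6.35 weeks (SD, n = 16; permutation p = 0.8008).

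**Figure D1:**
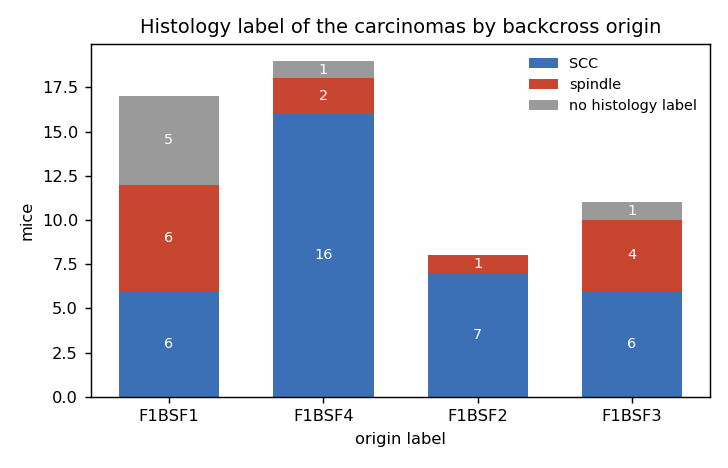
Number of mice (vertical axis) with each histology label, for each origin label (horizontal axis). F1BSF1 holds 6 SCC and 6 spindle mice and F1BSF4 holds 16 SCC and 2 spindle mice.

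Before expression was compared between origins, the histology labels were set against the expression of epithelial genes. Krt14, the type I keratin of basal keratinocytes, lay between 13.2 and 13.9 in 13 of the 16 SCC of F1BSF4, and the lowest of the 16 was 10.7. In 5 of the 6 SCC of F1BSF1 it lay between 13.6 and 13.9, but in F1BSF1 replicate 8, labelled a well differentiated SCC, it was 6.22. The mean of 27 epithelial adhesion genes (cadherin, desmosome, claudin and simple keratin genes) was 4.59 in that tumour, against 7.98 to 9.42 in the other 5. The sex markers of replicate 8 also opposed its label, which says female. In the other direction, 3 of the 6 spindle carcinomas of F1BSF1 had Krt14 between 13.3 and 14.0 and adhesion means between 8.22 and 8.96. In 1 of the 2 spindle carcinomas of F1BSF4 Krt14 was 14.1 and the adhesion mean 8.85. The adhesion means of these 4 lay within the range of the SCC, and 3 of their 4 Krt14 values (13.96, 14.02 and 14.06) lay above those of every SCC of both origins. The submitters' tumor_class label, whose meaning is not given in the sources used here, followed the epithelial genes more closely than the histology label did. Whether that label was itself drawn from expression values is not given either. The match, and fits with tumor_class in the model, may therefore be circular. The 8 mice with class 1 samples alone had adhesion means of 4.59 to 6.90, and the 26 with class 2 samples alone had means of 7.28 to 9.51. The other 2 mice, 1 of each origin, had a sample of each class, and their averages of 7.22 and 7.56 lay between the former and most of the latter. Class 1 was given to 6 of 18 F1BSF1 samples and 5 of 22 F1BSF4 samples (exact p = 0.4977, adjusted p = 0.79). This test counted samples, so that mice with more than 1 sample entered it more than once.

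**Figure D2:**
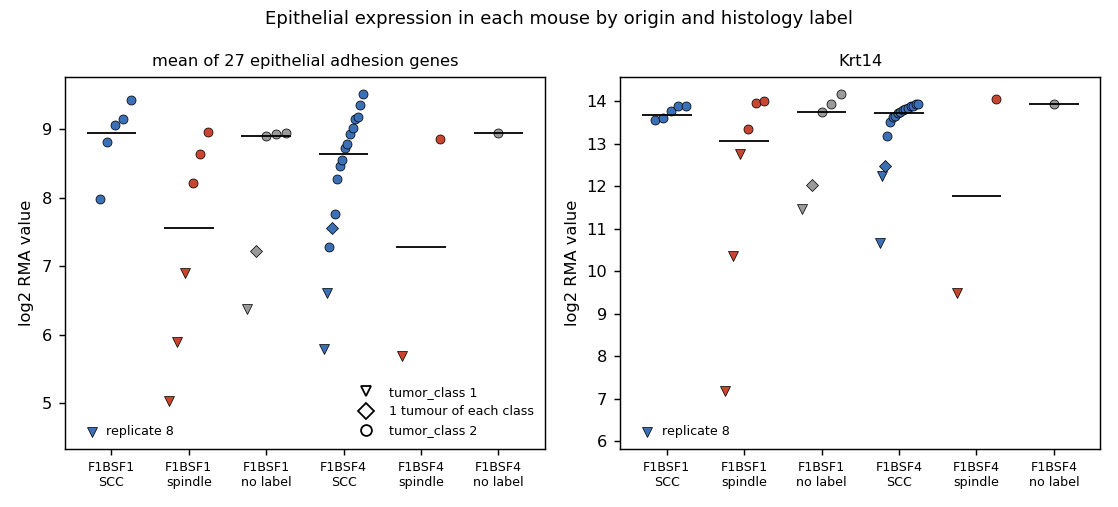
Mean log2 RMA value of 27 epithelial adhesion genes (left) and the log2 RMA value of Krt14 (right) in each mouse, by origin and histology label (bars, medians), with the marker shape giving the tumor_class label. F1BSF1 replicate 8, labelled SCC, lies at 4.59 and 6.22, and 3 of 6 F1BSF1 spindle mice lie among the SCC.

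Other libraries stood apart. Sex markers (Xist and 3 Y-linked genes) opposed the sex label, or showed both sexes or neither, on 4 of 18 F1BSF1 arrays (replicates 1, 7, 8 and 17) and on 3 of 22 F1BSF4 arrays (replicates 4, 18 and 19), out of 12 such arrays in the series. Xist itself had means of 8.54 and 9.26 and Eif2s3y of 4.71 and 4.62 in F1BSF1 and F1BSF4. Correlations above 0.98 with an array of another mouse were found for F1BSF1 replicate 7 (0.985, with an F1BSF3 array) and for F1BSF4 replicates 13 and 14 (0.986 with each other). The 3′ minus 5′ difference of the Gapdh control probe sets had medians of 0.110 and 0.0566 in F1BSF1 and F1BSF4 and was highest, at 1.85, in an F1BSF4 array. Lists and genes were also fitted without the arrays of mismatched sex markers, and values are given below for some of those that moved. A list or gene without such a value was not always stable. Over all mice, the medians of IL1-mediated inflammation, sebaceous and mesenchymal genes turned from 0.01, 0.02 and 0.02 to -0.06, -0.08 and -0.02. The stress keratin median went from -0.41 to -0.70, that of MHC class II from -0.13 to -0.07, and Alas2 from -0.45 to -0.73.

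To ask which genes differed between the origins at all, 12791 genes were tested over the 17 and 19 mice. None passed an adjusted p of 0.05 in limma's moderated test with Benjamini-Hochberg adjustment (0 of 12791, 0%), and 444 (3.47%) had an unadjusted p below 0.05, of which 223 (1.74%) were higher and 221 (1.73%) lower in F1BSF1. The smallest unadjusted p was 0.0008546. The median size of the log2 difference was 0.0852 with a median standard error of 0.127. For 12119 genes (94.7%) the 95% interval of the difference lay within 2-fold in both directions, and for 10226 (79.9%) within 1.5-fold. For widely varying genes, among them the keratins, the interval reached further.

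With the histology label in the model, 0 genes passed (0%) and 369 (2.88%) had an unadjusted p below 0.05, 122 (0.954%) higher and 247 (1.93%) lower in F1BSF1. Among SCC only, 6 mice against 16, 0 passed (0%) and 351 (2.74%) had an unadjusted p below 0.05, 125 (0.977%) higher and 226 (1.77%) lower. The difference of the origin effect between spindle carcinomas and SCC, tested as an interaction, gave 0 genes (0%) and 206 (1.61%) with an unadjusted p below 0.05, 112 (0.876%) with a term above 0 and 94 (0.735%) below. In the 30 labelled mice of the same origins, spindle minus SCC with origin in the model also gave 0 genes past the threshold, but 1974 (15.4%) with an unadjusted p below 0.05. Any difference among all 4 origins gave 0 genes past the threshold and 707 (5.53%) with an unadjusted p below 0.05, or 621 (4.85%) with the histology label in the model.

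**Figure D3:**
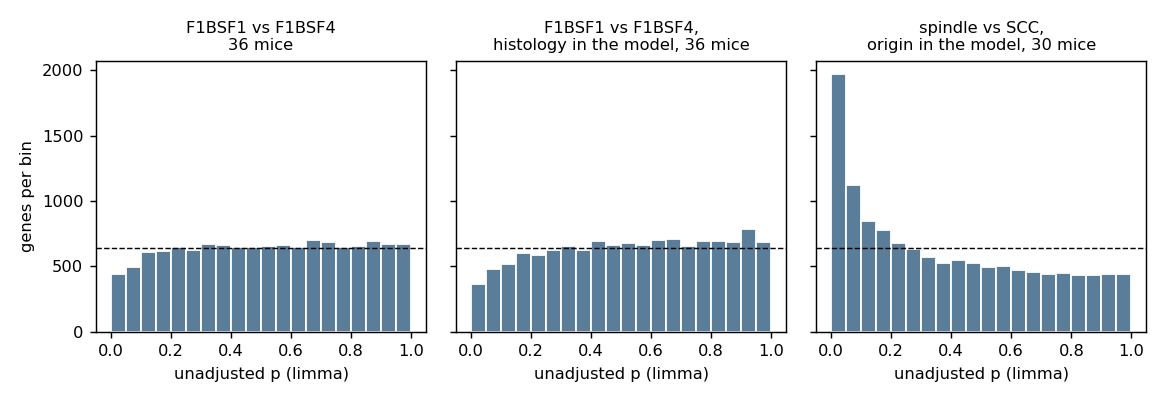
Number of the 12791 genes (vertical axis) in each bin of unadjusted limma p (horizontal axis) for the origin difference without and with the histology label in the model and for spindle minus SCC, where the dashed line is an even spread over the 20 bins. Below 0.05 lie 444, 369 and 1974 genes.

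Since no gene passed, the genes with the smallest unadjusted p in each direction are given as values. Among those with a higher mean in F1BSF1 was Armc5, an armadillo repeat protein encoded on chromosome 7. Its values ran from 6.41 through a median of 6.76 to 7.21 in F1BSF1 and from 6.11 through 6.50 to 6.80 in F1BSF4, and 7 F1BSF1 mice lay above every F1BSF4 mouse. The difference was 0.28 ± 0.08 (SE, 95% interval 0.12 to 0.44, unadjusted p = 0.00106, adjusted p = 1, limma). Nek2, a centrosomal kinase that drives centrosome separation, had the largest difference of these genes. It ran from 6.58 through 7.38 to 8.35 in F1BSF1 and from 4.80 through 6.83 to 7.90 in F1BSF4, with 16 of 17 F1BSF1 mice above the F1BSF4 median. Its difference was 0.66 ± 0.20 (SE, 95% interval 0.26 to 1.06, adjusted p = 1, limma). The others were Sipa1l3 (0.31), a member of the family of Rap GTPase activators, Ptpn9 (0.30), a protein tyrosine phosphatase, Vps16 (0.19), a subunit of vesicle tethering complexes, Atg4b (0.23), the protease that processes LC3 in autophagy, Zfp821 (0.24) and Rab3gap2 (0.49), the regulatory subunit of a Rab3 GTPase activator. All 8 overlapped between the groups and all had adjusted p = 1. Over the alternative settings the differences of Nek2, Rab3gap2 and Atg4b fell as low as 0.27, 0.15 and 0.05. The lowest values of Armc5, Sipa1l3, Ptpn9, Vps16 and Zfp821 were 0.25, 0.25, 0.275, 0.17 and 0.21.

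Among the genes with a lower mean in F1BSF1, 2010315B03Rik had the smallest p of all. It ran from 4.58 through 5.44 to 6.60 in F1BSF1 and from 5.42 through 5.98 to 6.74 in F1BSF4, a difference of -0.53 ± 0.14 (SE, 95% interval -0.82 to -0.23, adjusted p = 1, limma), and 8 F1BSF1 mice lay below every F1BSF4 mouse. Lactb, a mitochondrial protein related to bacterial beta-lactamases, ran from 6.31 through 6.83 to 7.33 against 6.77 through 7.07 to 7.64, with 6 F1BSF1 mice below every F1BSF4 mouse and a difference of -0.29. Cd52, a surface glycoprotein of lymphocytes and other leukocytes, ran from 7.31 through 8.57 to 9.65 against 8.24 through 9.33 to 9.82, a difference of -0.57. D2hgdh, the dehydrogenase that removes D-2-hydroxyglutarate, differed by -0.34, and all 17 F1BSF1 mice lay below the F1BSF4 median of 7.15 although both groups reached down to 6.33 and 6.27. Klra17 (-0.56), a Ly49 family receptor of immune cells, Gsc2 (-0.19), a homeobox gene, Shisal1 (-0.30) and Calhm2 (-0.31), of the calcium homeostasis modulator channel family, completed the list. D2hgdh and Atg4b lie close together on chromosome 1 and had opposite signs.

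With the histology label in the model, the gene with the smallest p was Gstm2, a mu class glutathione transferase of detoxification and a member of the study's list of carcinoma expression QTL. Its values ran from 5.01 through 6.34 to 7.91 in F1BSF1 and from 5.62 through 7.08 to 8.28 in F1BSF4, and the difference was -0.85 (95% interval -1.28 to -0.42, unadjusted p = 0.0003036) with histology and -0.49 (p = 0.02213) without it. It lay below the F1BSF4 median in 13 of 17 F1BSF1 mice. Next came Vav1 (-0.54), a guanine nucleotide exchange factor of blood cells, then E330020D12Rik (-1.51), Slc45a3 (-0.56), a solute carrier, Jmjd1c (-0.30), of the JmjC family of histone demethylases, Socs4 (-0.33), a suppressor of cytokine signalling, Calhm2 (-0.36) and Cops9 (-0.33), a subunit of the COP9 signalosome. On the higher side stood Vstm5 (0.63), Vegfa (0.67), the angiogenic growth factor, Me1 (0.59), the cytosolic malic enzyme that yields NADPH, Vldlr (0.66), a lipoprotein receptor, Ak4 (0.64), a mitochondrial adenylate kinase, Artn (0.93), a ligand of the GDNF family, Khdc3 (0.22) and Aire (0.29). Their adjusted p was 0.9999 or above in limma.

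E330020D12Rik, a transcript on chromosome 1, showed the widest split among these. In F1BSF1 it ran from 4.37 through 6.90 to 9.04 and in F1BSF4 from 5.63 through 7.65 to 8.51. Of the 17 F1BSF1 mice, 7 lay below every F1BSF4 mouse and 1 lay above every F1BSF4 mouse, so that the F1BSF1 values (SD 1.60) were more spread than those of F1BSF4 (SD 0.71). The difference was -1.08 over all mice (95% interval -1.88 to -0.29) and -1.74 in SCC (95% interval -2.52 to -0.95, unadjusted p = 0.0001327, adjusted p = 0.9992, limma), the smallest p within SCC.

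**Figure D4:**
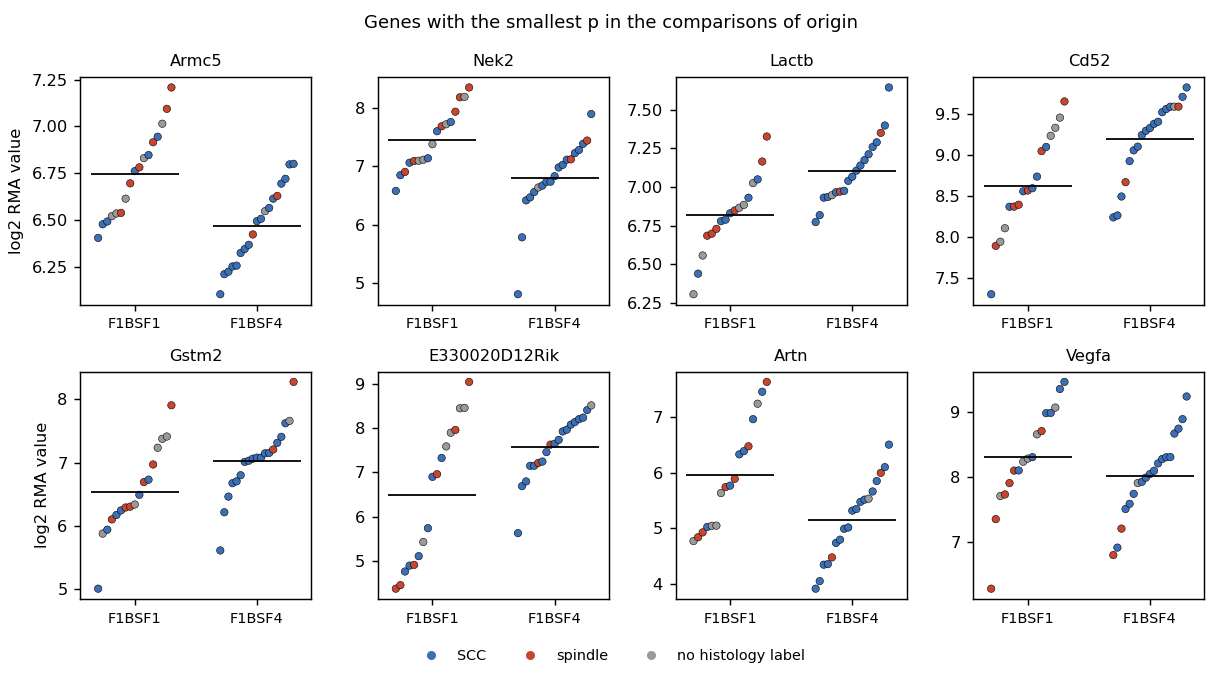
Log2 RMA value (vertical axes) of 8 genes in each F1BSF1 and F1BSF4 mouse, coloured by histology label, with bars at the group means. The groups overlap for every gene, and for E330020D12Rik 7 of 17 F1BSF1 mice lie below all F1BSF4 mice.

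Within SCC, the other genes of smallest p with lower means in F1BSF1 were Napsa, Lrmp, Gli3 and Vav1. Napsa, the aspartic protease napsin A, ran from 4.24 through 5.65 to 6.27 in the 6 F1BSF1 SCC and from 5.65 through 6.35 to 7.05 in the 16 F1BSF4 SCC, a difference of -0.84. Lrmp, a membrane protein of lymphoid cells, ran from 4.88 through 5.08 to 5.98 against 5.15 through 6.06 to 7.56 (-0.98). Gli3, a transcription factor of hedgehog signalling, ran from 6.29 through 6.82 to 7.83 against 7.22 through 7.596 to 8.03 (-0.68). On the higher side, Artn ran from 5.03 through 6.36 to 7.45 against 3.92 through 5.17 to 6.50 (1.19), Pcdhb20, a clustered protocadherin, differed by 0.77, Vstm5 by 0.85, Plk5, of the polo-like kinase family, by 0.34, and Khdc3 by 0.29. All had adjusted p = 0.9992 in limma. Without F1BSF1 replicate 8 the number of genes with an unadjusted p below 0.05 in SCC was 964 in place of 351, and 0 passed the threshold, with the smallest adjusted p at 0.5852. Without F1BSF1 replicate 9 it was 219. In the model with the histology label the count without replicate 8 was 662 in place of 369.

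Gene lists of skin tumour biology showed the same dependence. Without regard to histology, 12 of 12 basal keratinocyte genes, 24 of 27 epithelial adhesion genes and 26 of 33 suprabasal and cornified envelope genes had a lower mean in F1BSF1, with median differences of -0.44, -0.41 and -0.31 beside 0.00 over all genes. Of these genes, 0 had an unadjusted p below 0.05, where 3.47% of all genes did. The median mouse of F1BSF1 had list means of 10.3, 8.63 and 8.84, against 10.2, 8.72 and 8.23 in F1BSF4. For the basal and suprabasal lists it was thus not lower. Krt14 differed by -0.77 (95% interval -1.997 to 0.456), Perp, a desmosomal protein and p53 target, by -0.84 (95% interval -1.93 to 0.25), Dsp, the desmosomal plaque protein desmoplakin, by -0.92, Krt5 by -0.73 and Krt15 by -0.97. Without F1BSF1 replicate 8 alone the 3 medians were -0.13, -0.21 and -0.09. The stress keratins, induced in wounded and tumour epidermis, had a median of -0.41, or -0.02 without that tumour, with Krt6a at -0.77 and Krt6b at -0.83. With the histology label in the model the medians became -0.23, -0.12 and 0.34 for the basal, adhesion and suprabasal lists, and without replicate 8 they were 0.29, 0.32 and 0.84. With the tumor_class label in the model in place of histology they were 0.14, 0.03 and 0.09. Without the arrays of mismatched sex markers, which include replicate 8, the all-mice medians were -0.63, -0.43 and -0.51. Among SCC the medians were -0.34, -0.05 and 0.32, and without F1BSF1 replicate 8 they were 0.55, 0.70 and 1.04, with 0, 2 and 6 genes at an unadjusted p below 0.05 beside 7.54% of all genes. Leaving out that 1 tumour alone thus turned the direction of the basal and adhesion lists, within SCC and with histology in the model. With histology but without all arrays of mismatched sex markers, the basal median stayed at -0.23 with 10 of 12 lower. The adhesion median was 0.15 in that setting.

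The mesenchymal list was split over all mice, with 14 of 27 genes higher and a median of 0.02. With histology in the model 22 of 27 were lower (-0.17), in SCC 20 of 27 (-0.15), and in SCC without F1BSF1 replicate 8 24 of 27 (-0.38), where 4 had an unadjusted p below 0.05 beside 7.54% of all genes. Acta2, the smooth muscle actin of activated fibroblasts and vessel walls, was the member with an unadjusted p below 0.05. It ran from 9.39 through 10.4 to 13.1 in F1BSF1 and from 10.5 through 11.0 to 12.1 in F1BSF4, with 9 F1BSF1 mice below every F1BSF4 mouse and 1 above, a difference of -0.53 (95% interval -0.999 to -0.0636) and of -0.69 with histology in the model. Pdgfra, a receptor of fibroblasts, differed by 0.53 (unadjusted p = 0.1761). Hair follicle genes had a median of 0.14 with 10 of 13 higher, but of -0.09 with 4 of 13 higher without the arrays of mismatched sex markers. In SCC the median was 0.25, and 0.61 without F1BSF1 replicate 8. Krt25, a keratin of the inner root sheath, differed by 0.89 over all mice and by 1.56 in SCC (95% interval 0.12 to 3.01), from 2.87 through 4.91 to 7.59 against 2.75 through 3.06 to 6.74. Tchh, trichohyalin of the same sheath, differed by 0.55.

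Genes of mitosis lay slightly higher in F1BSF1 in 25 of 26 cases, with a median of 0.18 over all mice, 0.16 with histology in the model, 0.24 in SCC and 0.23 in SCC without F1BSF1 replicate 8. An unadjusted p below 0.05 was reached by 2 of 26 over all mice, against 3.47% of all genes, by 0 of 26 with histology in the model, by 1 of 26 over all mice without F1BSF1 replicate 8, and by 6 of 26 (23.1%) without the arrays of mismatched sex markers, against 4.76% of all genes there. Plk1, the polo-like kinase of mitotic entry, ran from 7.03 through 8.22 to 8.87 in F1BSF1 and from 6.99 through 7.89 to 8.30 in F1BSF4, and Cenpf, a centromere protein, from 7.10 through 7.87 to 8.99 against 5.95 through 7.63 to 8.47. The differences were 0.30 and 0.35. Cenpe, a kinetochore motor, differed by 0.28 (95% interval -0.02 to 0.57). The mean over the list ran from 7.73 to 9.16 in F1BSF1 and from 7.42 to 8.86 in F1BSF4, so that the groups overlapped.

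Genes of hypoxia and glycolysis had a median of 0.10 over all mice, with 0 of 19 at an unadjusted p below 0.05, and 0.24 with histology in the model, with 5 of 19, all higher in F1BSF1, where 2.88% of all genes reached that p. In SCC the median was 0.27 with 3 of 19. The list mean of F1BSF1 replicate 8 was 9.08 against 9.86 to 10.8 in the other 5 F1BSF1 SCC. Without that mouse the median was 0.57 with 14 of 19, beside 7.54% of all genes. Dropping all arrays whose sex markers went against the label left 4 F1BSF1 and 14 F1BSF4 SCC mice. The median there was 0.50 with 7 of 19, beside 7.59% of all genes. None passed after adjustment over all genes. Vegfa ran from 8.10 through 8.98 to 9.45 in the F1BSF1 SCC and from 6.91 through 8.15 to 9.23 in the F1BSF4 SCC, a difference of 0.71. Adm, the vasoactive peptide adrenomedullin, differed by 1.18, Bnip3, a mitophagy receptor, by 0.54 and Car9, a carbonic anhydrase of hypoxic cells, by 0.65 in SCC. Over all mice their differences were 0.27, 0.31 and 0.38, and that of Adm turned to -0.14 without the arrays whose sex markers went against the label.

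**Figure D5:**
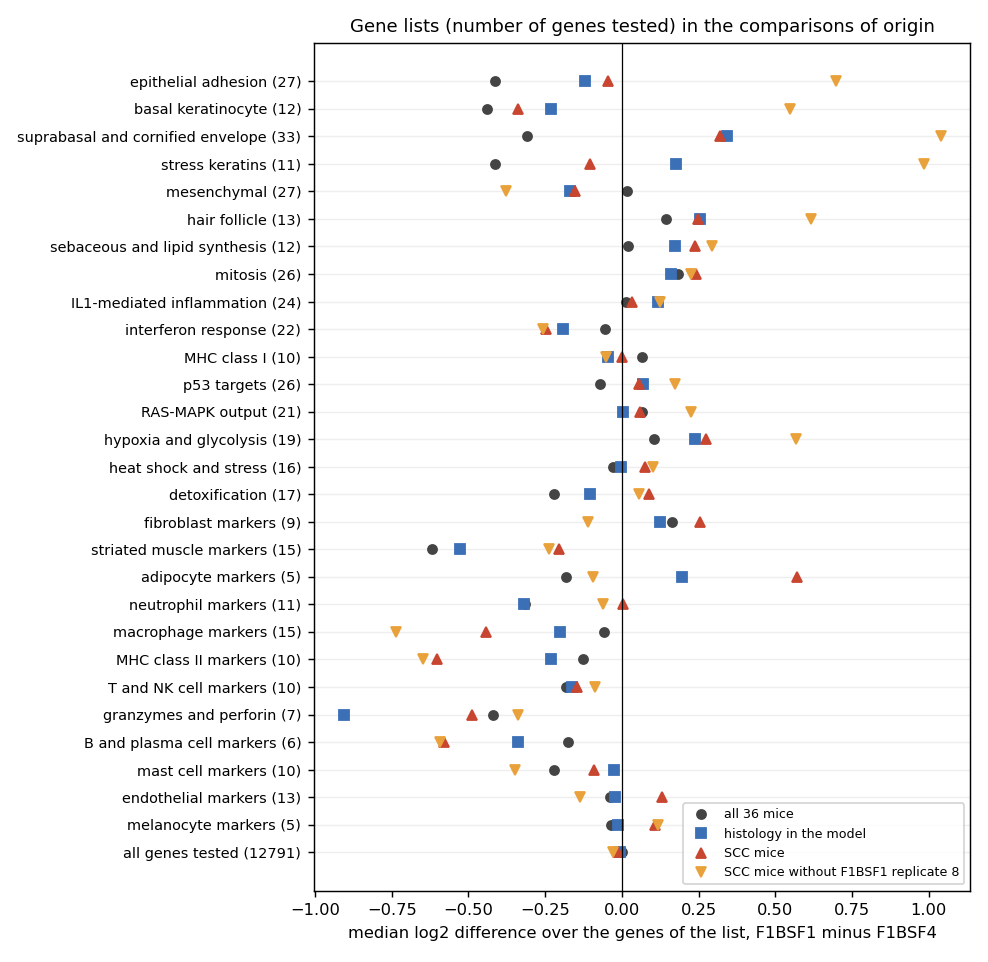
Median log2 difference, F1BSF1 minus F1BSF4 (horizontal axis), over the tested genes of each list, in 4 comparisons. The 4 keratinocyte lists lie between -0.44 and -0.31 over all mice and between 0.55 and 1.04 in SCC without F1BSF1 replicate 8.

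Lists of immune and stromal cells mostly had lower means in F1BSF1. All 10 tested T and NK cell markers (median -0.18), all 10 MHC class II markers (-0.13) and all 7 granzyme and perforin genes (-0.42) were lower. So were all 10 mast cell markers (-0.22), 10 of 11 neutrophil markers (-0.31) and 11 of 15 macrophage markers (-0.06). The filter on low genes had left 10 of 20 T and NK, 10 of 12 MHC class II and 7 of 9 granzyme and perforin genes. The T and NK list means, 4.93 in F1BSF1 and 5.15 in F1BSF4, lay near the array medians of 4.43 to 4.56. The granzyme and perforin means, 4.43 and 4.96, did so too. Among these lists an unadjusted p below 0.05 was reached by Ciita, the MHC class II transactivator (-0.29), and Cd8a, the co-receptor of cytotoxic T cells (-0.15), and 0 genes passed after adjustment in limma. The members of each list rise and fall with the same cells, and their counts are therefore not independent. Within SCC the neutrophil median was 0.00 with 6 of 11 higher, and that of mast cell markers -0.09 with 3 of 10 higher. In SCC the MHC class II median was -0.60, with 4 of 10 at an unadjusted p below 0.05 beside 2.74% of all genes, and without F1BSF1 replicate 8 it was -0.65 with 2 of 10 beside 7.54%. H2-Ab1, an MHC class II chain, ran from 8.18 through 8.89 to 10.8 against 8.27 through 10.2 to 11.1. The macrophage median in SCC was -0.44 with 0 of 15, and without F1BSF1 replicate 8 it was -0.74 with 7 of 15 beside 7.54% of all genes. Without the arrays of mismatched sex markers, which left 4 F1BSF1 and 14 F1BSF4 SCC mice, it was -0.92 with 10 of 15 beside 7.59%. The plasma cell genes Jchain and Ighm differed by -1.92 (95% interval -3.84 to 0.00) and -2.02 (95% interval -4.07 to 0.04) in SCC. Gzmc and Gzmd, granzymes of cytotoxic lymphocytes, differed by -0.64 and -0.80 over all mice, and Cd3d, a chain of the T cell receptor complex, by -0.39. Erythroid markers were represented by Alas2 (-0.45), and endothelial, melanocyte and adipocyte markers had medians of -0.04, -0.04 and -0.18, fibroblast markers 0.16. Without the arrays of mismatched sex markers the neutrophil and granzyme medians were -0.49 and -0.63, and the endothelial, adipocyte and fibroblast medians -0.20, -0.44 and 0.06.

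Striated muscle markers were lower in F1BSF1 for all 15 genes, with a median of -0.62, and 0 of 15 had an unadjusted p below 0.05. Mb, myoglobin, ran from 4.28 through 6.19 to 7.55 in F1BSF1 and from 5.04 through 6.55 to 9.91 in F1BSF4. Tnnc2, Myh2 and Acta1, genes of the contractile apparatus, differed by -0.76, -0.70 and -0.68. The list mean reached 10.2 in the highest F1BSF4 mouse and 7.82 in the highest F1BSF1 mouse while the medians were 6.58 and 6.65, and 2 F1BSF4 SCC mice, at 9.81 and 10.2, lay above every other mouse of both origins. In SCC the median was -0.21.

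Of the remaining lists, medians over all mice were 0.01 for IL1-mediated inflammation, -0.05 for interferon response, 0.06 for MHC class I, -0.07 for p53 targets, 0.06 for RAS-MAPK output, -0.03 for heat shock and stress, -0.22 for detoxification, 0.02 for sebaceous and lipid synthesis and -0.18 for B and plasma cell markers. In SCC the interferon response median was -0.25 with 19 of 22 lower and 0 at an unadjusted p below 0.05. Members with an unadjusted p below 0.05 were Rsad2, an antiviral interferon-induced enzyme (-0.56), Tnfrsf10b, a TRAIL death receptor and p53 target (-0.26), and Gstm2. Cxcl5, a neutrophil chemokine, differed by -0.61 (unadjusted p = 0.09018), Cbr3, a carbonyl reductase, by -0.47, Gsto1, an omega class glutathione transferase, by -0.54, Usp18, which removes ISG15, by -0.36, Ccng1, a p53 target, by -0.37, Spry1, a feedback inhibitor of receptor tyrosine kinases, by 0.36 and B2m, the light chain of MHC class I, by 0.15.

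Of a list of genes named by the study, 12 were tested and 0 had an unadjusted p below 0.05 between the origins. Tslp, an epithelial cytokine, had the largest difference of these, 1.25 (95% interval -0.08 to 2.57, unadjusted p = 0.06453). It ran from 3.87 through 6.13 to 11.8 in F1BSF1 and from 3.43 through 5.21 to 9.46 in F1BSF4, and 4 F1BSF1 mice lay above every F1BSF4 mouse. Gzme, a granzyme, ran from 2.63 through 6.19 to 9.52 against 3.596 through 7.99 to 11.2 (-0.96), and Il18, a cytokine of the interleukin 1 family, from 6.84 through 8.00 to 9.65 against 6.99 through 8.75 to 9.93 (-0.39). Plau, the urokinase protease, which is on the list only as a gene with an expression QTL, differed by 0.36 with a 95% interval of -0.87 to 1.58, Krt71 by 0.25, Lgr5, a hair follicle stem cell marker, by -0.26 and Ccnd1, cyclin D1, by 0.11. Spry2, another inhibitor of receptor tyrosine kinase signalling, Map2k4, a kinase of the JNK pathway, Ddx6, an RNA helicase, and Gprc5d differed by 0.00, -0.02, 0.00 and 0.01, and each of these 4 changed sign under some other settings. With histology in the model Krt25 was the member with an unadjusted p below 0.05, at 1.31.

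Although what the origin labels stand for is not given, the genes were also followed by chromosome. The share with an unadjusted p below 0.05, 3.47% over all genes, was highest on chromosome 7 (6.81%, 68 of 999 genes, 44 higher and 24 lower in F1BSF1), followed by chromosome 1 (5.73%, 42 of 733), chromosome 19 (5.47%, 25 of 457) and chromosome 9 (5.45%, 39 of 716), and lowest on chromosome 15 (8 of 534). With the histology label in the model the share was 2.60% on chromosome 7, and 5.59%, 5.36%, 5.03% and 4.75% on chromosomes 1, 10, 19 and 9, beside 2.88% over all genes. Neighbouring genes are not independent, and no test of a chromosome was made. On chromosome 1, Kcnk2, Cenpf, Smyd2, Dtl, Nek2 and Rcor3 lie within a stretch of 22 tested genes, and all 6 had higher means in F1BSF1 with unadjusted p below 0.05, a stretch singled out after its values were seen. On chromosome 9, Oaf, Rnf26, Bcl9l, Ift46, Ube4a and Rnf214 did the same among 45 tested genes. Many other runs of genes at that p, each within 2 Mb of the next, held both signs. The longest, on chromosome 7, had 16 such genes among 108 tested, 9 higher and 7 lower in F1BSF1. Runs of 1 sign also went the other way, as F5, Atp1b1, Pogk and Mgst3 on chromosome 1 were all lower.

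Genes with an expression QTL, that is a locus linked to their level, in these carcinomas were listed by the study. The list was chosen on these same samples and is not independent evidence. Of its 834 names, 767 were among the genes tested. An unadjusted p below 0.05 between the origins was found for 33 of them (4.30%, beside 3.47% of all genes), 18 higher and 15 lower in F1BSF1, and 0 passed after adjustment. By chromosome the share ran from 0 of 38 on chromosome 6, and 0 on chromosomes 12, 16, 18 and X, to 10 of 71 (14.1%) on chromosome 1, where 5.73% of all genes reached that p. Nek2 and D2hgdh, described above, belong to the list.

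The difference of the origin effect between spindle carcinomas and SCC rested on 2 spindle mice of F1BSF4. Mtap, methylthioadenosine phosphorylase of the methionine salvage pathway, had the smallest p. It was 9.01 and 6.09 in the 2 F1BSF4 spindle mice and 9.50, 9.74, 8.66, 12.3, 11.2 and 10.6 in the 6 of F1BSF1, while SCC medians were 9.14 in F1BSF1 and 9.68 in F1BSF4, an interaction of 3.62 ± 0.96 (SE, adjusted p = 0.9999, limma). Without F1BSF4 replicate 18, the mouse at 6.09, it was 2.15, and without the arrays of mismatched sex markers 1.62. Mmp12, the macrophage elastase, was 6.03 and 6.35 in the F1BSF4 spindle mice and 7.46 to 9.35 in those of F1BSF1, and Alpk3, a kinase of muscle, was 5.81 and 5.42 against 4.47 to 5.13, with interactions of 3.64 and -0.99. Chromosome 5 held 37 of the 206 genes with an unadjusted p below 0.05 (4.56% of its 812 genes, beside 1.61% of all), 33 of them with a term above 0. Without F1BSF4 replicate 18, whose sex markers showed both sexes, 1 gene passed and 544 had an unadjusted p below 0.05. That gene was Mybph, a myosin binding protein of muscle, at 6.74 in the remaining F1BSF4 spindle mouse, 3.82 in replicate 18 and 3.74 to 4.30 in the F1BSF1 spindle mice (interaction -2.89, adjusted p = 0.0001479, limma), and it therefore rests on 1 tumour, in which the striated muscle list mean was 8.97.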

How the data were processed

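RNA of 60 carcinomas was hybridised to Affymetrix mouse arrays, and the values deposited are on a log2 scale, as produced by the authors with RMA (background correction, quantile normalization across arrays and a summary of each probe set). Differences are therefore relative to each array as a whole. The RMA version and a genome build for the values are not given in the sources used here. Arrays yield no counts, and the number of mice limits the precision.

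Of 45101 probe sets, 34958 had a single symbol, 932 several and 9211 none. Symbols were updated through the RefSeq table of GRCm38.p6, which matched 34754 and was otherwise used only for chromosomes and neighbours. Each of 18194 genes was represented by its brightest probe set on average, and the 12791 genes that exceeded the median of an array in 8 or more arrays were tested. Samples were grouped by the origin label, samples of a mouse were averaged, and limma 3.58.1 in R 4.3.3 (lmFit, eBayes) was fitted for origin, for origin with the histology label (SCC, spindle, not given), within SCC, and for the interaction with histology. Benjamini-Hochberg adjusted p below 0.05 counted as passing. Labels were compared by Fisher's exact test or a permutation test with 100000 resamples (two-sided, scipy 1.17.1). The 95% intervals came from the moderated fit. The limma step was checked on simulated data. P-values measure the spread between mice, except that the test of the tumor_class label counted samples. Replicate numbers only name samples in accession order. Alternatives changed the filter, the probe set rule, the scaling, the unit (every tumour, with the mouse as a random effect), covariates and the arrays included. Another took the cage as a random effect.

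Named genes are the 8 of smallest unadjusted p in each direction over all mice and with histology, 5 in each direction in SCC, 3 for the interaction, up to 4 of each list by size of difference, and a list of genes named by the study. Origins, lists and genes were chosen with earlier results of these data known.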

Additional observations from a re-analysis of the deposited data

Results flagged for a closer look

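Dixon's test set the highest or lowest mouse against the others of its group. It was applied 36 times, each time to 1 list or gene in the 6 SCC or the 6 spindle mice of F1BSF1. F1BSF4 mice were not tested. The genes were those of smallest p in SCC or for the interaction. About 1 in 20 tests is flagged by chance where measures are independent, but these shared the same mice and related genes. In these tests 7 values lay apart. Of these, 4 belonged to F1BSF1 replicate 8, labelled a well differentiated SCC. Its mean over epithelial adhesion genes was 4.59 (next F1BSF1 SCC 7.98), over basal keratinocyte genes 5.28 (next 10.1) and over suprabasal and cornified envelope genes 4.40 (next 8.86), while Lrmp, at 5.98, was above the next SCC at 5.29. F1BSF1 replicate 9, also an SCC, was lowest for Vav1 at 3.88 (next 4.67) and highest for Alpk3 at 5.48 (next 5.15). F1BSF1 replicate 2, a spindle carcinoma, had a striated muscle marker mean of 4.54 (next 6.65).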

How the results depend on the processing

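Of 196 recomputed counts of genes past the threshold in the 4 comparisons, 194 stayed at 0. The interaction of origin with histology gave 1 gene without the arrays whose sex markers went against the label, and 0 to 1 when mice were left out in turn, with 1 without F1BSF4 replicate 18, where a single F1BSF4 spindle mouse remained and was assumed to vary like the others. Counts at an unadjusted p below 0.05 ranged on leaving out a mouse from 361 to, without F1BSF4 replicate 18, 300 higher and 258 lower for origin, and from 270 to 662 with histology, 219 to 964 in SCC and 169 to 544 for the interaction. Without the filter on low genes they were 685, 643, 656 and 395, and with every probe set tested 948, 784, 705 and 396. With tumor_class in the model they were 572 with histology and 551 in SCC, and without the arrays whose sex markers went against the label 619, 971 and 879 with histology, in SCC and for the interaction. Leaving out F1BSF4 replicate 1 or F1BSF1 replicate 8 gave 364 and 325 for the interaction. All 589 recomputed list medians of the comparison over all mice moved by less than 1 SD between mice, a limit too wide to measure stability. For basal keratinocyte genes the SD of the list mean was 1.86 in F1BSF1 and 1.31 in F1BSF4, beside a median of -0.44. A full reversal could therefore stay within it. Some medians crossed 0, among them basal keratinocyte, epithelial adhesion and hair follicle genes. Medians with histology and in SCC are not among these 589, and some of them also turned without F1BSF1 replicate 8. Of these settings, 3 (list medians without F1BSF1 replicate 8, without the arrays of mismatched sex markers, and with tumor_class) were chosen after seeing the data.

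Of 107 gene results, 98 never changed sign. Many of these genes had been named for a small p or a large difference in these same data, which favours a stable sign. A kept sign did not mean a kept size. Over the settings Nek2 (0.66 over all mice) fell to 0.27 and D2hgdh (-0.34) shrank to -0.18. With histology in the model Jmjd1c (-0.30) and Socs4 (-0.33) each shrank to -0.06. Spry2 (0.00 over all mice) was -0.0086 with every tumour fitted, -0.015 after quantile normalization, -0.0138 at a common 75th percentile, -0.0045 with p53 and -0.0306 with the Gapdh difference as covariate, -0.118 without mismatched sex markers, -0.0452 without nearly identical arrays and -0.0532 to 0.0839 on leaving out a mouse. Gprc5d was -0.0148, -0.0066 and -0.094 with every tumour fitted, at the common percentile and without mismatched sex markers, -0.0328 with coat, -0.0259 with tumor_class and -0.0434 to 0.0819 on leaving out a mouse. Map2k4 was 0.0553 with the mean of probe sets, 0.0344 with tumor_class, 0.0031 with the Gapdh difference and -0.0754 to 0.0116 on leaving out a mouse, and Ddx6 was 0.0605 with the mean of probe sets, 0.0467 without mismatched sex markers and -0.0365 to 0.0122. Kdm5d was -0.0017 at the common percentile, -0.0543 with tumor_class, -0.121 without nearly identical arrays and -0.171 to 0.224, Eif2s3y -0.0588 without nearly identical arrays and -0.115 to 0.317, and Uty -0.0049 to 0.261 on leaving out a mouse. Without mismatched sex markers Krt71 was -0.0525 and Adm -0.141. The share of females over tumours and papillomas at 24 weeks on a log scale turned direction, and neither passed after adjustment. The cause was not tested. No paired analysis was possible because replicate numbers were given in accession order and only name samples.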
